A study of Mus musculus with 5 samples.

Results

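The pairs described here join 5 kb bins whose starts lie 10 to 45 kb apart on mouse chromosome 5, across the captured region chr5:27,480,001-30,270,000 (mm10) around the Sonic hedgehog gene Shh. They were chosen by distance alone. Of 4420 such pairs, 4263 remained in every map after 10 of the 558 bins had been left out, each of which met fewer than 25% as many partner bins as the median bin in at least 1 map. They are part of 149,340 kept pairs at 10 kb or more. Every value was divided by the mean at its distance in its own map, so a distance-normalised contact of 1 is the average of that map, and a value above 1 means that neighbouring stretches met more often than was usual at that distance.

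The contact maps were made by capture Hi-C, in which ligated DNA pieces are enriched for a chosen region before sequencing, from limb buds of E10.5 embryos. The 5 mutant genotypes were all homozygous, with 1 library each. Embryos of the genotypes intraTAD2, intraTAD3 and intraTAD2-i4CTCF were obtained by mating. Embryos of intraTAD2-2xBorCTCF and intraTAD2-1xBorCTCF were obtained by tetraploid aggregation, where stem cells are combined with tetraploid host cells. The last 3 are written i4CTCF, 2xBorCTCF and 1xBorCTCF below, and their names share the intraTAD2 allele. The sixth map, wild type, belongs to no sample, is the authors' value, and has no described library. The sources used here do not state what each allele changes or how many embryos a library pooled, and contact maps hold no expression by which the tissue could be checked. Genotype therefore cannot be told apart from the library in any comparison, nor from the embryo source where mating and aggregation are compared.

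Contact at such short distances reflects how tightly neighbouring chromatin is folded, and it drops at the borders of topologically associating domains, where loop extrusion by cohesin is stopped by the DNA-binding protein CTCF. In the limb bud Shh is switched on by the ZRS, an enhancer that lies far away inside an intron of Lmbr1, across a gene desert. The desert taken here begins just past the highest coordinate of Shh, on the side of its start. It runs to the next protein-coding gene, Rnf32 (chr5:28,467,102-29,192,744, 725.643 kb, 144 bins), and holds long noncoding RNA genes but no protein-coding gene.

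Recovered contacts at 10 to 45 kb numbered 364,397 in wild type, 690,119 in intraTAD3, 721,432 in intraTAD2, 441,404 in 1xBorCTCF, 266,146 in 2xBorCTCF and 292,062 in i4CTCF. That is a mean of 62.4 to 169 contacts per pair, and 4 to 23 of the 4263 pairs had none in a given map. With 1 library per genotype no test was possible, and all intervals are 95% intervals of counting error, which leave out the spread between embryos.

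Contact fell along the same course in the 6 maps, a little faster in i4CTCF. The mean balanced value at 45 kb was 24.8% of that at 10 kb in wild type, 22.7% in intraTAD3, 24.5% in intraTAD2, 23.7% in 1xBorCTCF, 23.0% in 2xBorCTCF and 20.1% in i4CTCF. The slope of log2 contact on log2 distance was -1.06 in i4CTCF and -0.99 to -0.93 in the other 5 maps. Of all contacts at 10 kb or more, 30.1% lay at 10 to 45 kb in wild type and 33.9% in i4CTCF (Clopper-Pearson interval 33.8 to 34.0), with 30.7% to 33.0% in the others. These differences were removed by the division within each map.

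The starts of 8 genes, with that of Lmbr1 first, were spanned by less short-range contact than 3 in 4 bins of the region, but gene starts in general were not, and without the balancing 3 of the 8 (Lmbr1, Paxip1 and Ube3c) were. Contact spanning a start was the mean of the pairs with 1 bin on each side of the bin that holds it, and over 551 bins its median was 0.952, with quartiles at 0.879 and 1.1. RefSeq starts (GRCm38.p6) were matched for 19 of the 23 protein-coding genes of the region. Of these 19, 8 lay below the lower quartile of all bins, while the median over the 19 was 0.971. The 8 were Lmbr1, Rnf32 (a RING finger gene), Rbm33 (an RNA-binding protein), Insig1 (a regulator of sterol synthesis), Dnajb6 (a chaperone), Paxip1 (a DNA damage response protein), Ube3c (a ubiquitin ligase) and Nom1 (a nucleolar protein). The Lmbr1 start (29,378,390) had 0.606 in wild type, 0.609 in intraTAD3, 0.601 in intraTAD2, 0.591 in 1xBorCTCF, 0.609 in 2xBorCTCF and 0.629 in i4CTCF, and 1.63% of all bins lay lower. The 6 maps lay close together there. The Rnf32 start (29,195,993) had 0.765 to 0.800 and the Rbm33 start (28,317,189) 0.765 to 0.838. The highest starts, Speer4b (1.77 to 1.91), Selenoi (1.47 to 1.6) and Hadhb (1.21 to 1.40), lay near the ends of the captured region. At 28,465,001, the edge of the bin that holds the Shh start, spanning contact was 0.530 in wild type, 0.575 in intraTAD3, 0.542 in intraTAD2, 0.647 in 1xBorCTCF, 0.605 in 2xBorCTCF and 0.542 in i4CTCF.

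The 250 bases before the starts of Lmbr1 (chr5:29378391-29378640, minus strand), Rnf32 (chr5:29195743-29195992, plus strand) and Rbm33 (chr5:28316939-28317188, plus strand) are shown because these were the 3 least-spanned starts. Those of Dnajb6 (chr5:29735648-29735897, plus strand) and Paxip1 (chr5:27791551-27791800, minus strand) are also shown. They are the 2 of 19 that hold AGGTGGC or AGGGGGC, which are 2 forms of the CTCF core motif. Other forms were not searched. Sequences are from RefSeq, GRCm38.p6, written 5′ to 3′ along the gene. Capitals mark a match to AGGTGGC or AGGGGGC, searched on both strands. These 2 motifs differ in their middle letter and cannot match at the same place.
Lmbr1 start: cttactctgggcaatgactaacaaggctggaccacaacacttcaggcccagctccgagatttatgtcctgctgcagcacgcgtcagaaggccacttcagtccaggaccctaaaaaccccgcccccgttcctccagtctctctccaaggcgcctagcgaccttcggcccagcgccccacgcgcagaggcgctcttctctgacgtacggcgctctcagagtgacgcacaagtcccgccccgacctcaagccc
Rnf32 start: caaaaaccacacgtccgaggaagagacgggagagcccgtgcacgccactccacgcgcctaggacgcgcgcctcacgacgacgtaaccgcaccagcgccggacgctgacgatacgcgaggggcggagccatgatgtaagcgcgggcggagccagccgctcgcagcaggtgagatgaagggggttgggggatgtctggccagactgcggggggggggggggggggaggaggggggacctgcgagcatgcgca
Rbm33 start: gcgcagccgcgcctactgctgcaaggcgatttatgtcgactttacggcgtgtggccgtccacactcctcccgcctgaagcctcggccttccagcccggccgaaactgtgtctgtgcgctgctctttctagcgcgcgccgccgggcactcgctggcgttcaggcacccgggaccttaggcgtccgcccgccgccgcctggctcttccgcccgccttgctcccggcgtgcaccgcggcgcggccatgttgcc
Dnajb6 start: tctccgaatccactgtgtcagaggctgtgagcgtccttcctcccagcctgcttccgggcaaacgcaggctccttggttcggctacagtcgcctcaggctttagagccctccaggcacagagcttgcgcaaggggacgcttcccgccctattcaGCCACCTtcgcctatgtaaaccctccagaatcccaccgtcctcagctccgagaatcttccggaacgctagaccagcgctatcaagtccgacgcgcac
Paxip1 start: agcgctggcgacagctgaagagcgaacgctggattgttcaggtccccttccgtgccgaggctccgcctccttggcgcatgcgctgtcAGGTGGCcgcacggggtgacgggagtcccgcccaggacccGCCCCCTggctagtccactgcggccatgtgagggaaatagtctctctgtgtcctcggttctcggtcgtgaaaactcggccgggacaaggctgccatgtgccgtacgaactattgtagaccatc
Of 32,536 promoter stretches of this length in the RefSeq table, 14.1% hold either motif. The 5 stretches were 60.4% to 70.8% G and C, against a median of 52.4% over all of them. Dnajb6 has 1 match and Paxip1 has 2, and spanning contact at these starts was 0.778 to 0.812 and 0.775 to 0.892. A match is a string of letters and was not tied to binding in these data.

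Along the region, balanced short-range contact was highest at the ends of the captured stretch and lowest beside Shh, in all 6 maps. Over 55 non-overlapping windows of 50 kb the correlation of log2 contact between maps was 0.923 to 0.969 (Pearson, 15 pairs of maps, a description in which the points share the same bins and base composition). The lowest window, 28,430,001 to 28,480,000, holds Shh and the border towards Rbm33. Its contact was 0.546 in wild type, 0.571 in intraTAD3, 0.606 in intraTAD2, 0.648 in 1xBorCTCF, 0.599 in 2xBorCTCF and 0.588 in i4CTCF. The windows that followed were 29,280,001 to 29,330,000 (median over maps 0.741) and 29,230,001 to 29,280,000 (0.780), both inside Lmbr1. After these came 28,080,001 to 28,130,000 between Insig1 and the homeobox gene En2 (0.781), and 28,480,001 to 28,530,000, the first 50 kb of the desert (0.787).

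The highest window, 27,480,001 to 27,530,000 at the left end, lay in Dpp6 and Speer4b and had 1.76 to 1.86. It was followed by 30,180,001 to 30,230,000 at the right end (Hadhb and Adgrf3, 1.35 to 1.43), the next 2 windows of Dpp6 (medians 1.32 and 1.30) and 30,130,001 to 30,180,000 with Hadha and Hadhb (1.27). The 5 windows at the left end had medians of 1.11 to 1.83 and the 5 at the right end 1.03 to 1.40, against 0.594 to 1.21 in the 45 between them. In recovered contacts without balancing the highest window was instead below average, at 0.544 to 0.660 over the maps. The Shh window (0.253 to 0.364) was then lowest in intraTAD2, intraTAD3 and i4CTCF, while in wild type, 2xBorCTCF and 1xBorCTCF the window at 27,930,001 was lowest (0.170, 0.202 and 0.210). Balancing gives each bin the same total. In wild type the bins of the outer 250 kb put 30.7% of that total at 10 to 45 kb and 13.7% beyond 500 kb, against 21.9% and 20.3% in desert bins. The part of the ends and of the balancing in these levels was not tested.

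**Figure D1:**
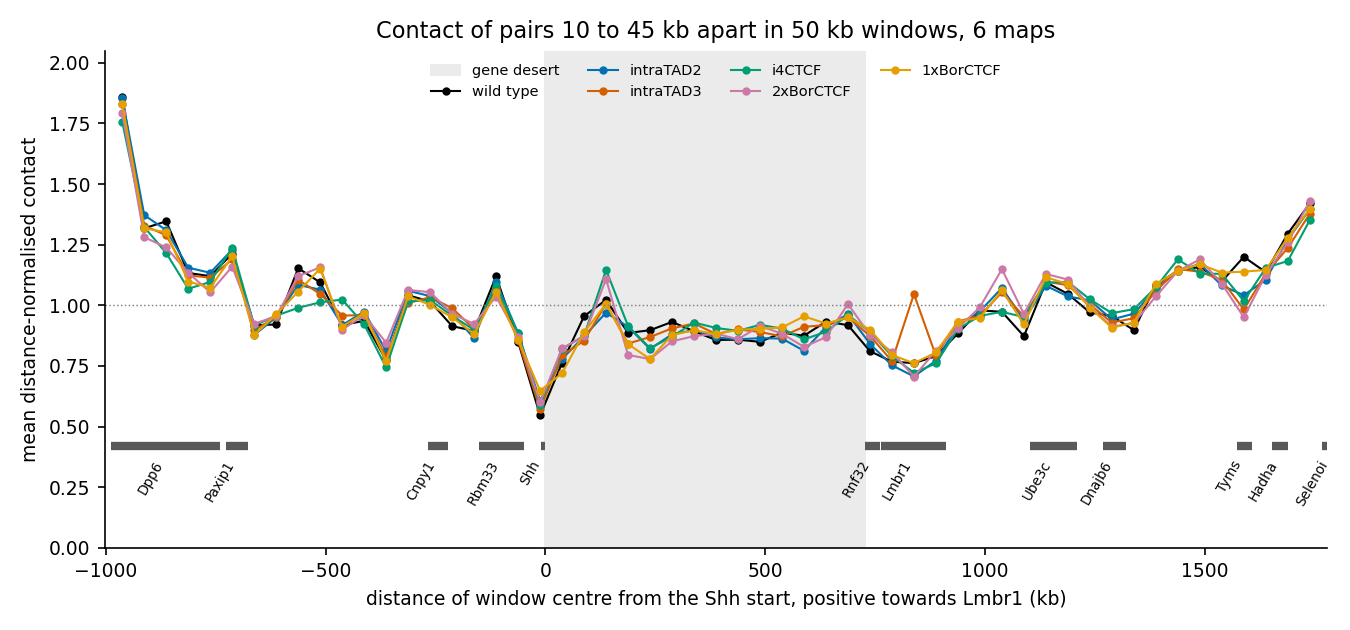
Mean distance-normalised contact of pairs 10 to 45 kb apart (y axis, no unit, 1 is the map average) in 55 windows of 50 kb, by distance of the window centre from the Shh start in kb, for wild type and 5 mutant maps; grey shading is the gene desert and dark bars are gene bodies. The 6 lines run together, lowest beside Shh (0.546 to 0.648), and in these balanced values the intraTAD3 line leaves the others in a window of Lmbr1 (1.05 against 0.706 to 0.762).

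Gene bodies had more short-range contact than the desert in each of the 6 maps, but the gap shrank when the ends of the region were left out. Pairs with both bins in the body of the same protein-coding gene (1009 pairs) had a mean of 1.12 (interval 1.11 to 1.13) in wild type, 1.12 in intraTAD3, 1.12 in intraTAD2, 1.11 in 1xBorCTCF, 1.1 in 2xBorCTCF and 1.1 in i4CTCF. The 1058 pairs of the desert had 0.894 (0.884 to 0.904) in wild type, 0.882 in intraTAD3, 0.879 in intraTAD2, 0.885 in 1xBorCTCF, 0.880 in 2xBorCTCF and 0.903 in i4CTCF. The remaining 2196 pairs lay at 0.995 to 1.01. The log2 difference between gene bodies and desert was 0.33 (0.31 to 0.35) in wild type and between 0.28 and 0.35 in the mutants, beyond counting error in each.

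Without the outer 250 kb at each end, gene bodies (581 pairs) fell to 0.961 to 0.980 and the difference from the desert to a median of 0.13 over the 6 maps (0.11 to 0.15). The other pairs of the inner region were then at 0.952 to 0.984, a median of 0.13 above the desert, about as far as the gene bodies were. Without Dpp6 alone the difference was 0.21. In recovered contacts without balancing gene bodies were lower than the desert in all 6 maps, by a median log2 difference of -0.085, and with the outer 250 kb also left out they were lower in 4 maps and higher in i4CTCF and 1xBorCTCF. The direction of this comparison thus turned with the balancing.

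Inside the desert, balanced contact was below the map average over most of its length, and without balancing it was uneven. Of the 14 windows that lie in it, 13 had medians below 1, against 32 of all 55 windows, and they ranged from 0.787 next to Shh to 1.01 at 28,580,001 to 28,630,000. Without balancing, 6 or 7 of the 14 lay above 1 in each map, and in wild type they ranged from 0.271 to 1.93. Pairs within a long noncoding RNA gene such as 9530036O11Rik (473 pairs) were slightly below the other desert pairs (585) in each map. In wild type these had 0.880 and 0.906, and the log2 difference was -0.042 (-0.076 to -0.0092) there and -0.11 (-0.14 to -0.083) in 1xBorCTCF, the largest of the 6. Without balancing it lay between -0.42 and -0.29 over the 6 maps.

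In balanced values the genes differed from each other far more than the maps did. Selenoi (30,232,581 to 30,272,430), which encodes a phospholipid-synthesis enzyme, had a median of 1.76 over the maps (21 pairs, 1.69 to 1.81). Hadhb and Hadha, the subunits of the mitochondrial trifunctional protein of fatty acid oxidation, had 1.35 (10 pairs) and 1.32 (21 pairs). Dpp6 (26,817,357 to 27,727,500, of which the part inside the region was used), an auxiliary subunit of potassium channels, had 1.28 (356 pairs). These genes lie at the ends, as Tyms does, the gene of thymidylate synthase (16 pairs, 1.13). Paxip1 (27,740,080 to 27,791,672), 285.9 kb from the nearer end, had 1.29 (44 pairs).

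Of the genes further inside, Ube3c (29,569,242 to 29,676,077) had 1.1 (140 pairs) and Rbm33 (28,316,836 to 28,419,244) 1.04 (124 pairs). Below the average lay Dnajb6 (29,735,898 to 29,786,478) with 0.952, Rnf32 (29,192,745 to 29,227,635) with 0.906 and Cnpy1 (28,200,819 to 28,245,788), a modulator of FGF signalling, with 0.849. Lmbr1 (29,229,802 to 29,378,421), the carrier of the ZRS, was lowest of the 12 genes with 10 or more pairs. Its 162 pairs had 0.758 in wild type, 0.797 in intraTAD3, 0.742 in intraTAD2, 0.777 in 1xBorCTCF, 0.765 in 2xBorCTCF and 0.770 in i4CTCF. All of these lie below the desert mean of the same map. Without balancing the order of the genes was another one. Tyms was then lowest (median 0.362), Lmbr1 next (0.798) and Dpp6 after it (0.902), while Rnf32 (1.31) and Cnpy1 (1.39) lay above 1 and Hadha (1.78) was highest. In balanced values, neighbours in the order such as Hadhb, Hadha, Paxip1 and Dpp6 had ranges that overlap between maps.

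Shh (28,456,840 to 28,467,101), a short gene, offers 1 pair of kept bins. It had 0.508 in wild type (101 contacts, 0.409 to 0.607), 0.684 in intraTAD3, 0.619 in intraTAD2, 0.747 in 1xBorCTCF (229 contacts), 0.707 in 2xBorCTCF (85 contacts) and 0.626 in i4CTCF. Wild type was the lowest of the 6. The log2 ratio to wild type was 0.43 (0.094 to 0.76) in intraTAD3, 0.48 (0.060 to 0.89) in 2xBorCTCF and 0.56 (0.22 to 0.89) in 1xBorCTCF. In intraTAD2 and i4CTCF the interval included no change. Without balancing the ratio of this 1 pair was 0.28 in intraTAD3, 0.16 in 2xBorCTCF and 0.87 in 1xBorCTCF.

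**Figure D2:**
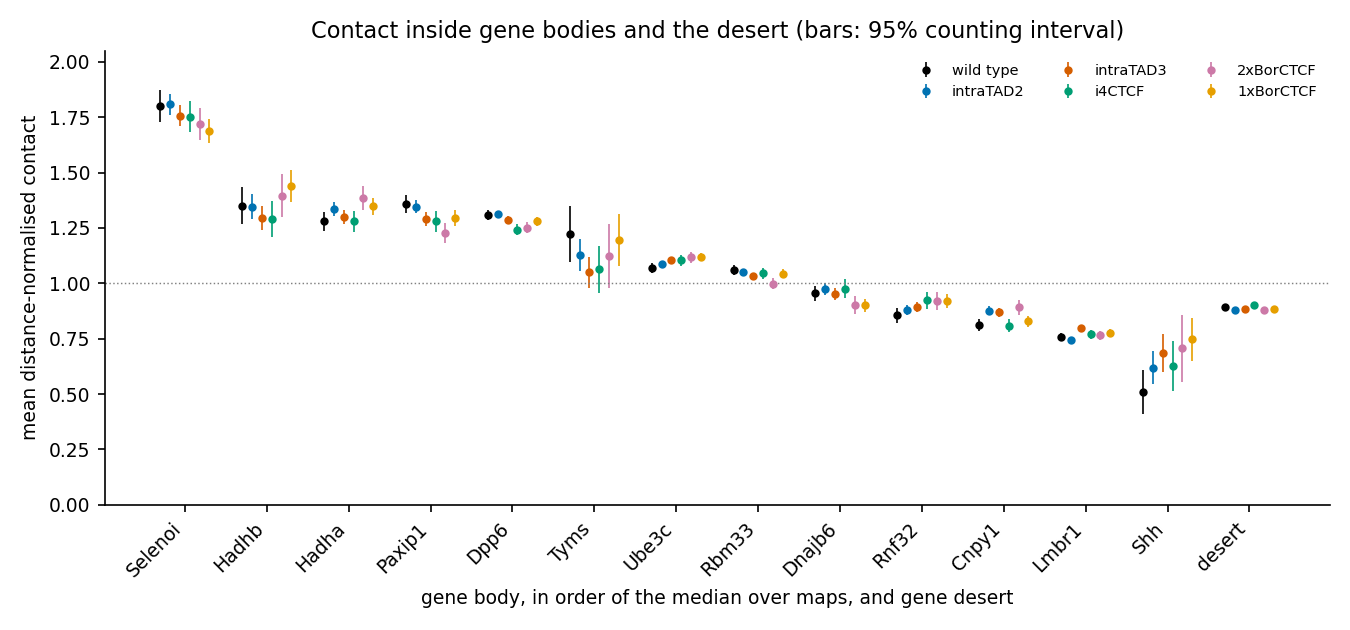
Mean distance-normalised contact (y axis, no unit) inside 13 gene bodies, ordered by their median over maps, and in the desert, for 6 maps; points are maps and bars are 95% counting intervals. Genes span from 1.76 (Selenoi) to 0.655 (Shh, 1 pair), while in most genes the points of 1 gene lie close together. Those of Shh (0.508 to 0.747) and Tyms (1.05 to 1.22) are spread wider.

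Gene bodies as a group hardly differed between maps. Against wild type their log2 ratio was -0.033 (-0.053 to -0.013) in 2xBorCTCF and -0.032 (-0.051 to -0.012) in i4CTCF, with intervals that included 0 in intraTAD2, intraTAD3 and 1xBorCTCF. The desert had -0.026 (-0.045 to -0.0066) in intraTAD2 and -0.020 (-0.039 to -0.00014) in intraTAD3, with intervals including 0 in the other 3 maps. Against intraTAD2, the desert of i4CTCF was higher by 0.040 (0.021 to 0.059) and its gene bodies were at -0.034 (-0.050 to -0.017). Without balancing both of these turned, to -0.011 and 0.0067. Of the 12 genes, 1 passed 1.1-fold against wild type in intraTAD3 (Tyms, 1.05 against 1.22, log2 ratio -0.22, -0.40 to -0.042, and 0.17 without balancing), 1 in i4CTCF (Tyms, -0.20, -0.41 to 0.0054, an interval that includes no change) and 1 in 2xBorCTCF (Paxip1, 1.23 against 1.36, -0.15, -0.22 to -0.078). In the other 7 comparisons none of the 12 passed it, although 1 to 5 genes a direction differed beyond counting error in most of them. Of 54 such differences, those of Shh included, 8 turned without balancing. Ube3c was higher than wild type in 4 mutant maps, by 0.046 to 0.064 on the log2 scale. It kept that direction without balancing (0.065 to 0.18).

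The 2 borders of the domain that holds Shh and the ZRS were placed from pairs 50 to 200 kb apart in wild type. The short-range pairs were not used for this. Each border is the least-spanned position of a stretch set for the search. One stretch lay between the Rbm33 and Shh bodies, extended by 50 kb, and the other was Lmbr1. That a border lies inside Lmbr1 was thus set by the search. The border between Rbm33 and Shh lay at 28,450,001 and was also the position that short-range pairs spanned least of all 551 positions, by the median over maps. A position is an edge between bins, and its spanning contact is the mean of up to 44 short-range pairs with 1 bin on each side. It was 0.498 (717 contacts, 0.445 to 0.551) in wild type, 0.530 in intraTAD3, 0.524 in intraTAD2, 0.592 (1050 contacts, 0.542 to 0.641) in 1xBorCTCF, 0.558 in 2xBorCTCF and 0.498 in i4CTCF. The BorCTCF maps were the highest pair in these balanced values. Without balancing intraTAD2 (0.333) lay above 2xBorCTCF (0.315), and its log2 ratio to wild type was 0.20 (0.073 to 0.34). In 1xBorCTCF the log2 ratio was 0.25 (0.052 to 0.45) to wild type and 0.17 (0.023 to 0.33) to intraTAD2 (0.26 and 0.058 without balancing, the latter with an interval of -0.059 to 0.17), while in 2xBorCTCF both intervals included no change (0.16, -0.070 to 0.40, and 0.090, -0.11 to 0.29). Between the BorCTCF maps the ratio was -0.085 (-0.30 to 0.13).

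The border inside Lmbr1 lay at 29,365,001. Spanning contact was 0.707 in wild type, 0.673 in intraTAD3, 0.687 in intraTAD2, 0.696 in 1xBorCTCF, 0.739 in 2xBorCTCF and 0.687 in i4CTCF, and no interval of the 10 ratios excluded equality, whereas without balancing 2xBorCTCF was higher than wild type (0.18, 0.066 to 0.29) and than intraTAD2 (0.12, 0.025 to 0.22), and 1xBorCTCF higher than wild type (0.10, 0.0044 to 0.20). Among the 551 positions it ranked 15 to 25 from the bottom, against 1 to 3 for the border beside Shh. The trough of the short-range pairs was not at this position but 10 kb further on, at the edge 29,375,001 of the bin of the Lmbr1 start.

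**Figure D3:**
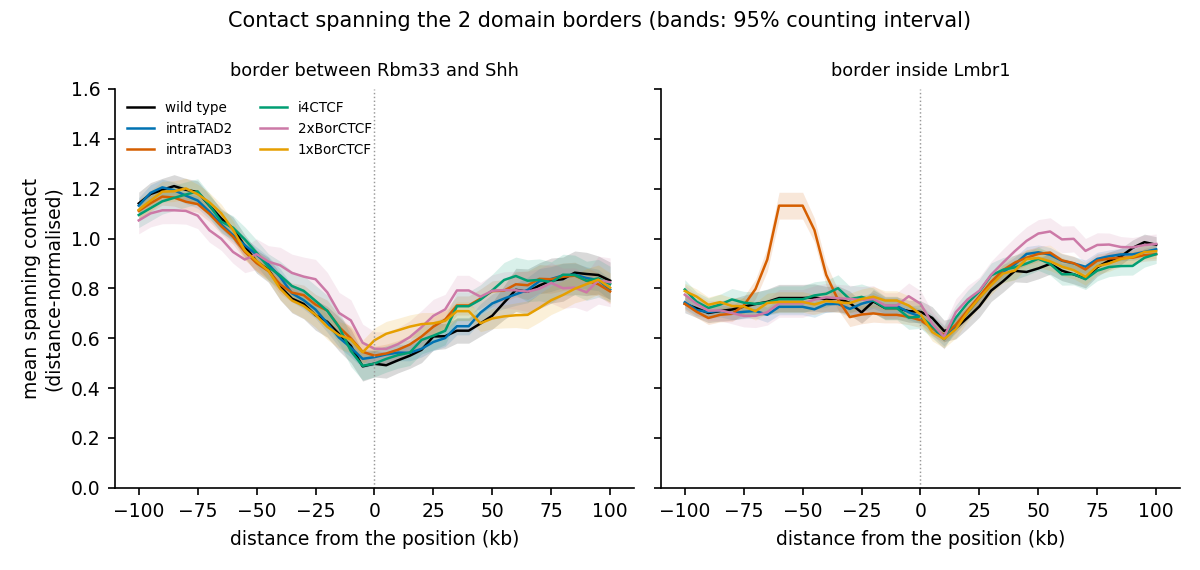
Mean contact of short-range pairs spanning each bin edge (y axis, distance-normalised, no unit) by distance in kb from the 2 domain borders, for 6 maps with bands of 95% counting intervals. Left, in these balanced values contact at the border beside Shh is highest in 1xBorCTCF and 2xBorCTCF (0.592 and 0.558 against 0.498 in wild type). On the Rbm33 side, at 28,430,001, 1xBorCTCF (0.646) lies below wild type (0.666). Right, the trough lies 10 kb past the border and the peak to its left is the intraTAD3 rise described below.

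The mutant maps were then set against wild type to find where local contact differed. These 5 comparisons share the wild-type map, so features of that map appear in all of them. Windows past 1.1-fold made up 5.45% of 55 in intraTAD3 (1 higher, 2 lower), 5.45% in intraTAD2 (2 and 1), 5.45% in 1xBorCTCF (2 and 1), 9.09% in 2xBorCTCF (2 and 3) and 9.09% in i4CTCF (2 and 3). Of these 19 calls, 16 had an interval excluding no change. Of the 27 such windows over all 10 comparisons, 6 turned without balancing. The largest ratio was that of the window 29,280,001 to 29,330,000 in Lmbr1, which had 1.05 in intraTAD3 against 0.762 in wild type (log2 ratio 0.46, 0.34 to 0.58) and 0.706 to 0.761 in the other maps. Without balancing that ratio was 0.029 (-0.065 to 0.12), and 1xBorCTCF (0.851) lay above intraTAD3 (0.836). In the desert the window 28,680,001 to 28,730,000 was lower in 2xBorCTCF (0.778 against 0.898, -0.21, -0.27 to -0.14) and 1xBorCTCF (0.779, -0.21, -0.26 to -0.15). There intraTAD2 (0.820), i4CTCF (0.823) and intraTAD3 (0.869) were also below wild type, but did not pass the fold.

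The window around Tyms, 30,030,001 to 30,080,000, was lower than wild type (1.2, 824 contacts) in intraTAD2 (1.04), intraTAD3 (0.983), i4CTCF (1.02) and 2xBorCTCF (0.951, -0.34, -0.56 to -0.12). Without balancing 3 of these turned, to 0.33 in intraTAD2, 0.17 in intraTAD3 and 0.36 in i4CTCF, and 2xBorCTCF kept its direction (-0.29). Wild type was the highest of the 6 maps in balanced values, and the bin at 30,050,001, left out of all maps, had no partners in wild type and 1xBorCTCF. The window 29,480,001 to 29,530,000, past the motor neuron homeobox gene Mnx1, was higher in intraTAD2 (1.07 against 0.974, 0.14, 0.086 to 0.19) and 2xBorCTCF (1.15, 0.24, 0.17 to 0.31). There intraTAD3 (1.05) and 1xBorCTCF (1.06) were also above wild type without passing the fold, and i4CTCF (0.973) was not. The window of Shh was higher in 1xBorCTCF (0.648 against 0.546, 0.25, 0.011 to 0.48). That of Rnf32 and the end of Lmbr1, 29,180,001 to 29,230,000, was also higher there (0.15), but turned without balancing (-0.055). In 2xBorCTCF 29,530,001 to 29,580,000 at the Ube3c start was higher (0.14) and the desert window 28,630,001 to 28,680,000 lower (-0.16). In i4CTCF 27,880,001 to 27,930,000 (-0.22) and 27,580,001 to 27,630,000 in Dpp6 (-0.15) were lower, and in intraTAD3 the desert window 28,530,001 to 28,580,000 (-0.16).

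Single pairs differed more often in the shallower maps. Pairs past 1.5-fold against wild type made up 7.79% of 4263 in intraTAD3, 6.83% in intraTAD2, 8.56% in 1xBorCTCF, 12% in 2xBorCTCF and 10.7% in i4CTCF. Only 141, 115, 132, 176 and 153 of these pairs, in the same order, also had an interval excluding no change. Between mutant maps the shares were 3.78% in intraTAD3, 5.7% in 1xBorCTCF, 8.75% in 2xBorCTCF and 7.2% in i4CTCF against intraTAD2, and 8.91% in 2xBorCTCF against 1xBorCTCF. At 50 to 500 kb, with 8.46 to 24.7 contacts per pair in the mutant maps, 28.5% to 46.9% of pairs passed the same fold. The 3 highest and 3 lowest pairs of each comparison with an interval excluding no change came to 60, of which 39 had 5 contacts or fewer in 1 of the maps and 8 had 20 or more in both.

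Of those 8, 5 joined the parts of Lmbr1 on either side of a stretch nearly without contacts in intraTAD3, and they are 3 pairs counted in 1 or both comparisons of that map. The pair of 29,300,001 and 29,320,001 had 2.73 in intraTAD3 (406 contacts), 0.941 in wild type (65 contacts, log2 ratio 1.53, 1.16 to 1.91) and 0.912 in intraTAD2 (178 contacts). The pairs of 29,300,001 and 29,325,001 (2.06 in intraTAD3, 0.630 in wild type) and of 29,295,001 and 29,320,001 (2.06 against 0.643 in intraTAD2) were the others. Outside Lmbr1 lay the pair of 27,775,001 and 27,810,001 at Paxip1, which was lower in intraTAD2 (0.543 against 1.66, -1.61, -2.43 to -0.80). The pair of 27,935,001 and 27,960,001, outside genes, was higher in 2xBorCTCF than in intraTAD2 (3.53 against 1.17, 1.59, 0.97 to 2.22, and 0.65 without balancing). All 8 kept their direction without balancing.

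Spanning contact located the differences more finely. Positions past 1.1-fold against wild type made up 6.72% of 551 in intraTAD3 (23 higher, 14 lower), 3.99% in intraTAD2 (8 and 14), 7.08% in 1xBorCTCF (20 and 19), 17.1% in 2xBorCTCF (55 and 39) and 11.6% in i4CTCF (30 and 34). Neighbouring positions share most of their pairs. In balanced values the largest differences in the comparisons of intraTAD2 and intraTAD3 with wild type fell at 3 positions. These were chosen after the values had been seen and are therefore described without support from the choice. Without balancing 27,935,001, outside protein-coding genes, differed more than these 3. Its log2 ratio to wild type (545 contacts) was then 1.01 in intraTAD2, 0.75 in intraTAD3 and 0.90 in i4CTCF, against 0.24, 0.27 and 0.25 in balanced values.

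At 28,685,001, in the desert within 9530036O11Rik, intraTAD2 had a dip. Spanning contact was 0.954 (0.921 to 0.988) in wild type, 0.933 in intraTAD3, 0.729 (8092 contacts, 0.708 to 0.751) in intraTAD2, 0.759 in 1xBorCTCF, 0.818 in 2xBorCTCF and 0.872 in i4CTCF. Wild type and intraTAD3 were high, and the 4 maps whose names share intraTAD2 were low. The log2 ratio to wild type was -0.39 (-0.45 to -0.32) in intraTAD2, -0.33 (-0.40 to -0.26) in 1xBorCTCF, -0.22 (-0.31 to -0.14) in 2xBorCTCF and -0.13 (-0.21 to -0.048) in i4CTCF, against -0.033 (-0.097 to 0.031) in intraTAD3. Against intraTAD2 itself the dip was shallower in i4CTCF (0.26, 0.18 to 0.34) and 2xBorCTCF (0.17, 0.088 to 0.24), while for 1xBorCTCF the interval included no change (0.058, -0.0096 to 0.13). Without balancing the intervals included no change in i4CTCF (0.014, -0.051 to 0.080) and 2xBorCTCF (0.049, -0.017 to 0.11). In 1xBorCTCF the interval then excluded it (0.081, 0.026 to 0.14). Of its 44 pairs, 40 were below wild type in intraTAD2, 38 in 1xBorCTCF, 34 in 2xBorCTCF, 32 in i4CTCF and 27 in intraTAD3.

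All 4 maps of the intraTAD2 series lay below both wild type and intraTAD3 at 5.44% of the 551 positions, 30 in number. An unbroken run of 10 of them, 28,675,001 to 28,720,001, surrounds this position, and the gap was widest at 28,690,001 (-0.13 on the log2 scale). How often other sets of 4 maps lie below the rest was not tested. The position was picked after its values had been seen, so the run around it lends no support to a trait of the series. Without balancing the order held at 2 of the 30, of which 1 lies in the run, and at this position intraTAD3 (-0.16 against wild type) lay within the range of the intraTAD2 series (-0.23 to -0.15).

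At 28,880,001, in the desert between the long noncoding RNA genes Gm42243 and Gm35688, intraTAD3 was the lowest map in balanced values. Spanning contact was 0.651 (9962 contacts, 0.636 to 0.667) in intraTAD3, and 0.874 in wild type, 0.861 in intraTAD2, 0.888 in i4CTCF, 0.902 in 2xBorCTCF and 0.884 in 1xBorCTCF. The log2 ratio was -0.42 (-0.48 to -0.37) to wild type and -0.40 (-0.45 to -0.36) to intraTAD2. Without balancing the latter turned to 0.051 (0.0072 to 0.094), since intraTAD3 (1.72) then lay above intraTAD2 (1.66), 1xBorCTCF (1.64) and i4CTCF (1.6). With the bin beside the position left out as well, intraTAD3 (1.29) was again the lowest, against 1.70 to 2.07 in the other maps. All 44 pairs were below wild type in intraTAD3, against 20 to 26 in the other mutant maps. The 50 kb windows do not show it, since an edge between windows falls on this position.

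Across 29,305,001 to 29,315,001, inside Lmbr1, intraTAD3 was higher. In this genotype 3 bins there had few or no contacts, and 2 of them were left out of every map. Spanning contact was 1.13 (2734 contacts, 1.08 to 1.19) in intraTAD3, and 0.761 in wild type, 0.726 in intraTAD2, 0.756 in i4CTCF, 0.740 in 2xBorCTCF and 0.746 in 1xBorCTCF. The log2 ratio to wild type was 0.57 (0.45 to 0.70), over 28 pairs.

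**Figure D4:**
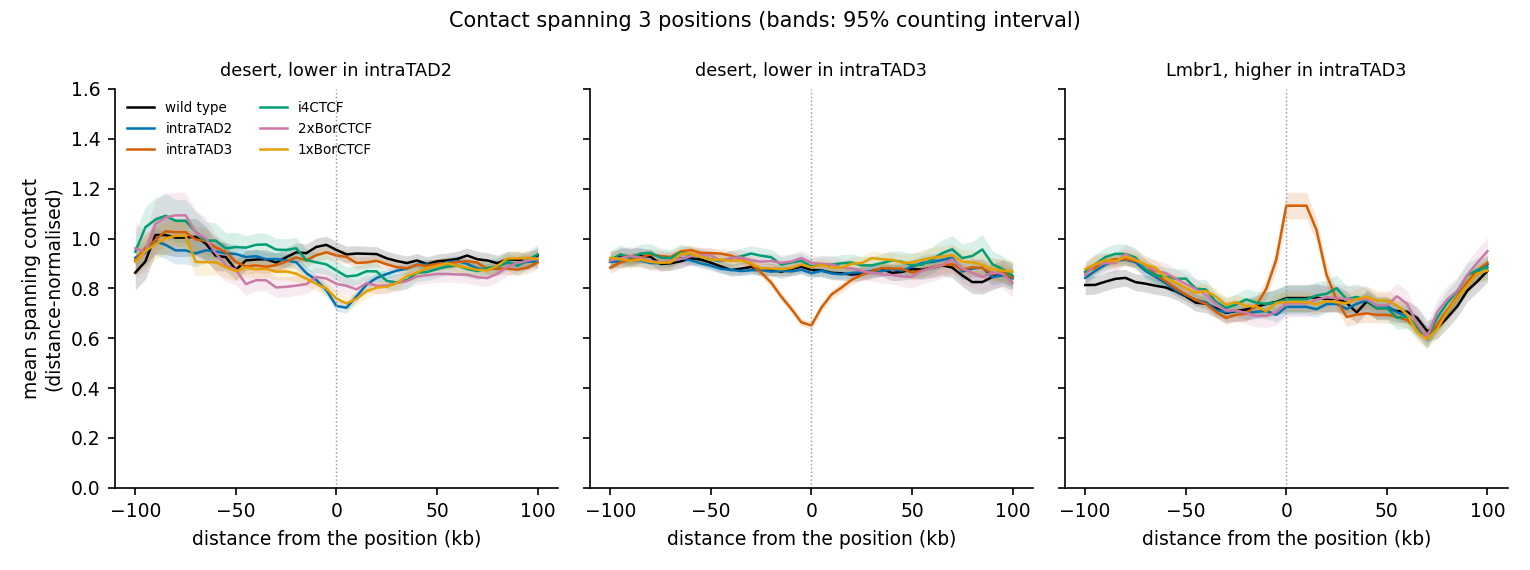
Mean contact of short-range pairs spanning each bin edge (y axis, distance-normalised, no unit) by distance in kb from 3 positions, for 6 maps with bands of 95% counting intervals. intraTAD2 falls to 0.729 in the left panel with the other maps of its series between it and wild type, intraTAD3 falls to 0.651 in the middle panel and reaches 1.13 in the right panel, apart from the other maps in these balanced values.

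The 3 differences were smaller over longer distances. In intraTAD2 the first dip was -0.51 at 10 kb, -0.42 at 45 kb, -0.24 at 60 kb and -0.20 (-0.41 to 0.014) at 100 kb on the log2 scale. In intraTAD3 the other dip was -0.52 at 10 kb, -0.62 at 20 kb, -0.41 at 45 kb, -0.16 at 60 kb and -0.070 (-0.23 to 0.092) at 100 kb. The rise reached 1.04 (0.67 to 1.41) at 25 kb and was 0.055 (-0.23 to 0.34) at 60 kb. Over all pairs 50 to 100 kb apart that span the positions, the ratios were -0.13 (-0.19 to -0.078), -0.18 (-0.22 to -0.13) and 0.12 (0.037 to 0.20). At the first position 1xBorCTCF had -0.21 (-0.27 to -0.15) over these longer pairs.

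**Figure D5:**
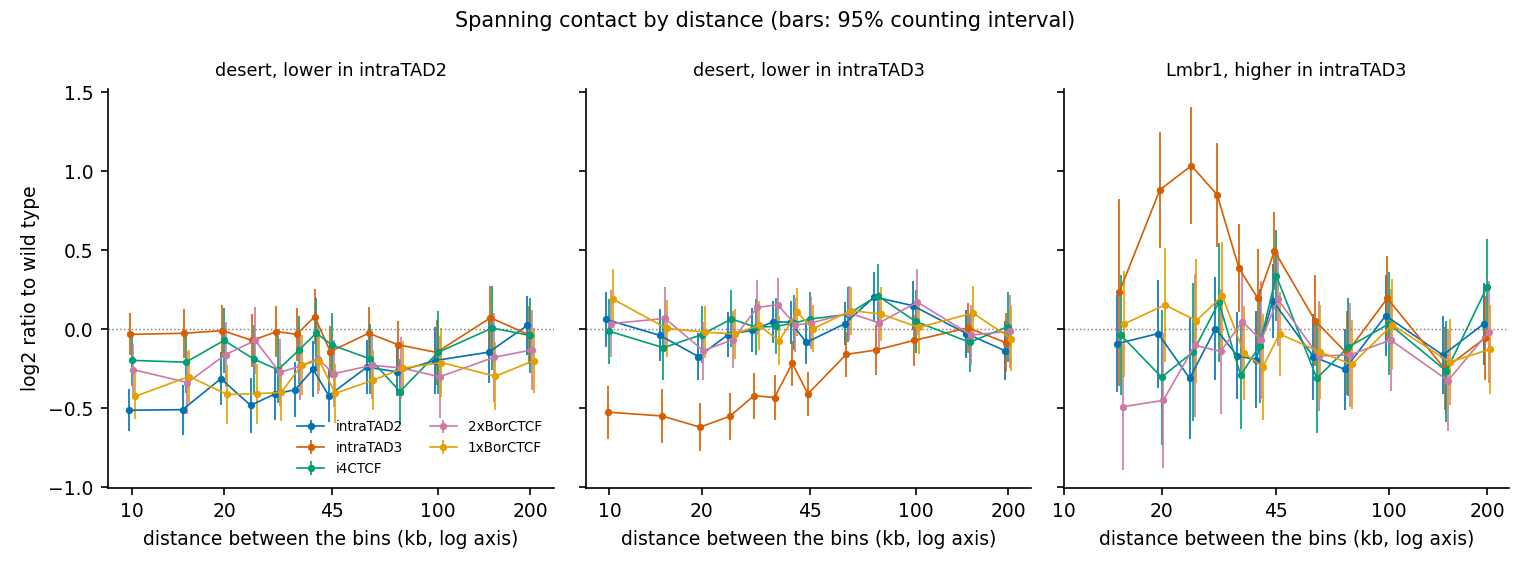
Log2 ratio to wild type of spanning contact (y axis) by distance between the bins in kb (log axis) at the same 3 positions, for 5 mutant maps; points are distances and bars are 95% counting intervals. The intraTAD3 dip goes from -0.62 at 20 kb to -0.070 at 100 kb and its rise from 1.04 at 25 kb to 0.055 at 60 kb.

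A bin beside each dip held more contacts than both of its neighbours in the map where the dip was deepest. The bin at 28,685,001 held 3.84 times the contacts of a mean bin in intraTAD2, 3.43 in 1xBorCTCF, 2.46 in i4CTCF, 2.12 in 2xBorCTCF, 2.03 in wild type and 1.93 in intraTAD3. In 2xBorCTCF the neighbour at 28,680,001 held more (2.19) than the bin itself. The bin at 28,875,001 held 4.22 times the mean in intraTAD3 and 0.753 to 1.23 in the other 5 maps. The bin at 29,315,001 held 0.0872 of the mean in intraTAD3 against 0.981 to 1.62. Without balancing, and with these bins kept, the 3 ratios to wild type were -0.23, -0.10 and 0.20. With these bins left out they were -0.42, -0.47 and 0.73 in balanced values, and -0.61, -0.69 and 0.87 without balancing. In that last setting the other mutant maps also differed from wild type, with intervals excluding no change. They were at -0.37 to -0.13 at the first position, -0.28 to -0.089 at the second and 0.18 to 0.29 at the third. The differences of the named maps were thus as large or larger without the bin, and in what way the raised bins entered them was not tested.

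Between mutant maps, windows past 1.1-fold made up 3.64% of 55 in intraTAD3 against intraTAD2 (both higher), 5.45% in i4CTCF, 3.64% in 2xBorCTCF and 1.82% in 1xBorCTCF against intraTAD2, and 7.27% in 2xBorCTCF against 1xBorCTCF. The window in Lmbr1 was again highest for intraTAD3 (1.05 against 0.707, 0.57, 0.47 to 0.66). In the desert, 28,580,001 to 28,630,000 was higher in i4CTCF (1.15 against 0.970, 0.24, 0.096 to 0.39) and 2xBorCTCF (1.11, 0.19, 0.037 to 0.35) than in intraTAD2, while 28,630,001 to 28,680,000 was lower in 2xBorCTCF (0.795 against 0.912, -0.20, -0.28 to -0.11). A window at 29,030,001 to 29,080,000 was higher in 1xBorCTCF (0.955 against 0.813, 0.23, 0.080 to 0.39) and in intraTAD3 (0.912, 0.17, 0.035 to 0.30), of which the first turned without balancing (-0.0051). In i4CTCF 27,980,001 to 28,030,000 was higher (0.16, but -0.10 without balancing) and 29,480,001 to 29,530,000 lower (-0.14). Between the BorCTCF maps, 2xBorCTCF was higher at 28,480,001 to 28,530,000 (0.19) and lower at 29,030,001 to 29,080,000 (-0.20) and in the Tyms window (-0.26).

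Positions past 1.1-fold against intraTAD2 made up 4.17% in intraTAD3, 4.54% in 1xBorCTCF, 5.99% in 2xBorCTCF and 6.53% in i4CTCF, and 7.62% in 2xBorCTCF against 1xBorCTCF. In 2xBorCTCF the positions on either side of Shh led the list, with 0.29 (0.15 to 0.42) at 28,485,001 and 0.25 (0.081 to 0.41) at 28,430,001, of which the latter turned without balancing (-0.028, -0.15 to 0.098). In 1xBorCTCF 28,465,001 was higher by 0.26 (0.12 to 0.39). In i4CTCF the position at 28,105,001, between Insig1 and En2, was lower (0.721 against 0.834, -0.21, -0.29 to -0.13) and the one at 28,140,001 higher (1.39 against 1.22, 0.19, 0.13 to 0.25).

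The BorCTCF maps, the only mutant maps from tetraploid aggregation, both lay above the other 4 maps at 8.89% of the 551 positions, 49 in number. The embryo source of the wild-type map, 1 of those 4, is not described. How often other pairs of maps lie above the rest was not tested. A run of 6 of the 49 positions, 28,450,001 to 28,475,001, covers the border beside Shh and Shh itself, with a gap of up to 0.087 on the log2 scale at 28,470,001, and another run lies over Ube3c. Without balancing both maps stayed above the others at 10 of the 49, of which 1 lies in the run beside Shh. Between the BorCTCF maps the higher one changed along this stretch. 2xBorCTCF was higher at 28,430,001, on the Rbm33 side (0.784 against 0.646, 0.28, 0.094 to 0.47), and at 28,500,001 in the desert (0.791 against 0.680, 0.22, 0.072 to 0.36), while at 28,465,001, inside Shh, it had 0.605 against 0.647. Without balancing the first 2 ratios were 0.069 and 0.080, with intervals that included no change.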

How the data were processed

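Capture Hi-C maps of 5 mutant limb bud libraries and a wild-type map were used. Per the labels' protocols, fixed chromatin was digested with DpnII, and the religated DNA was captured and sequenced from both ends. Bowtie2 2.2.6, mm9 and mm10 are listed in the submitters' processing notes, with no role. File names give a mapping quality of 30 and Knight-Ruiz (KR) balancing. Each deposited value is a contact signal between a pair of 5 kb bins, balanced by the authors map by map. Further filters are not stated in the sources used here. The files state no build on each line, and gene positions are from RefSeq GRCm38.p6.

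Whole contacts were recovered from the balanced signal as a whole number times a factor of each bin, with 100% of values whole within 0.01. The wild-type map is 1 file of no sample. Undefined values numbered 0 to 106 per map. Each value was divided by the mean at its distance over kept bins of its map (Python 3.11.15, numpy 2.4.6, scipy 1.17.1, pandas 2.3.3). Windows were called past 1.1-fold, pairs past 1.5-fold and positions past 1.1-fold. Intervals are weighted Poisson intervals of recovered contacts and cover counting error only. They were checked only on simulated maps with Poisson counts and fixed bin factors, a check that cannot cover error of the balancing. Neither reads nor PCR copies were at hand, so contacts need not be independent molecules.

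Genes named are those with 10 or more pairs in the body, and Shh. Windows named are the 5 highest and 5 lowest, and in each comparison up to 3 each way past the fold with an interval excluding no change. Pairs follow the same rule, with values given for those with 20 or more contacts in both maps, and starts are the 3 highest and lowest. Other positions and starts were picked after their values were seen. The members and lists were chosen with earlier results of these data known. Alternatives are given at the end.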

Additional observations from a re-analysis of the deposited data

How the results depend on the processing

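No paired analysis was possible because each genotype has 1 library, and no replicate was left out for the same reason. Depth limits single pairs most. Leaving out the outer 250 kb, Dpp6 or a bin beside a position, and the scan of positions, were added after the data had been seen.

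The median difference between gene bodies and desert, 0.33 on the log2 scale, was 0.27 with bins under 50% of the median partners left out, 0.35 with both bins wholly inside the gene, 0.30 as a median over pairs, 0.14 without the outer 250 kb (here with the mean at each distance taken again over the inner bins, where the report's 0.13 keeps that of all bins) and 0.21 without Dpp6. Without balancing it was -0.085, and by map -0.12 in wild type, -0.15 in intraTAD3, -0.053 in intraTAD2, -0.035 in 1xBorCTCF, -0.12 in 2xBorCTCF and -0.035 in i4CTCF. The cause was not tested.

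Windows past 1.1-fold over the 5 comparisons with wild type numbered 19, and 57 at distances of 20 to 45 kb, 111 without balancing, 1 with windows of 100 kb and 10 against the median of the other 5 maps. Over the 5 comparisons between mutant maps the 12 became 28, 59 and 1. Pairs past 1.5-fold numbered 1956, and 4956 without balancing and 927 against the median of the other maps. Between mutant maps the 1464 became 2233 without balancing.

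The median ratio of gene bodies to wild type, -0.0084, was -0.026 with division by the median at each distance and 0.011 against the median of the other maps. That of the desert, -0.020, was -0.082 without balancing and 0.0019 against the median of the other maps, where intraTAD3 also turned to 0.0019. For i4CTCF against intraTAD2 gene bodies turned to 0.0067 and the desert to -0.011 without balancing.

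Median contact spanning the border beside Shh, 0.527, was 0.314 without balancing, and that inside Lmbr1, 0.692, was 0.633. Without balancing the intraTAD2 dip was -0.23, the intraTAD3 dip -0.10 and the rise 0.20. With the bin beside the position left out as well they were -0.61, -0.69 and 0.87, and the other mutant maps also differed from wild type there. The balanced rise without its bin was 0.73. Against the median of the other maps the intraTAD2 dip was -0.26 and that of i4CTCF turned to 0.066. Of the 58 positions with the largest ratios in the 10 comparisons, 9 turned without balancing, as did 6 of 27 windows and none of 8 pairs. These counts were added after the data had been seen.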

Other observations

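In 2xBorCTCF the bin at 29,315,001 in Lmbr1 held 2421 contacts within itself, against 316 in wild type, 186 in intraTAD2, 157 in i4CTCF and 272 in 1xBorCTCF, and 0 in intraTAD3. The raised desert bins also held many contacts within themselves, 3821 at 28,685,001 in intraTAD2 against 798 in wild type, and 3894 at 28,875,001 in intraTAD3 against 86. Contacts within a bin are not among the pairs described here. They are counted in the balanced totals behind the shares given for bins of the outer 250 kb and of the desert. Their part in the authors' balancing was not tested.

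In 1xBorCTCF the pair of 28,600,001 and 28,610,001, on either side of a desert bin without contacts in any map, had 2.25 with 365 contacts, against 0.864 with 390 contacts in intraTAD2 (log2 ratio 1.38, 1.17 to 1.58).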
